A study of Mus musculus with 864 samples.

Results

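The genes described here are the nuclear genes of the oxidative phosphorylation system, read in single cells of mouse lumbar dorsal root ganglia. They were chosen by name: every row of the expression table whose symbol starts with Nduf, Uqcr, Sdha, Sdhb, Sdhc, Sdhd, Atp5 or Cox4 to Cox8, with processed pseudogenes (-ps) left out. That gave 92 of 23281 genes. By complex, 38 belonged to complex I, 4 to complex II, 8 to complex III, 18 to complex IV and 15 to complex V, so 83 code for subunits. The other 9 share a prefix without being counted as a subunit, among them assembly factors such as Ndufaf2 and Sdhaf2.

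Oxidative phosphorylation is carried out by 5 protein complexes of the inner mitochondrial membrane. Complexes I (NADH dehydrogenase) and II (succinate dehydrogenase) feed electrons to ubiquinone, complex III (cytochrome bc1) passes them to cytochrome c, and complex IV (cytochrome c oxidase) passes them to oxygen. Complexes I, III and IV pump protons, and complex V (ATP synthase) uses the gradient to make ATP. A few core subunits are encoded in mitochondrial DNA, and the nuclear genes described here supply most of the rest. In the ganglion, neurofilament-rich neurons have large cell bodies and myelinated axons, while peptidergic and non-peptidergic neurons are mostly small nociceptors and Th-positive neurons are low-threshold C-fibre mechanoreceptors.

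The study picked cells by hand from 6 lumbar ganglia (levels 4 to 6) of C57/Bl6 mice aged 6 to 8 weeks and sequenced the 5′ ends of their transcripts. The labels name no treatment, allele or transgene in any group. Animals are not named in the labels, and the unit of replication is therefore the preparation, a picking session of 1 sex. Preparation 1 is session A, male; 2 is session A, female; 3 is session B, male; 4 is session C, male; 5 is session C, female. Sessions A and B were picked at room temperature (RT), and session C on a cooled stage (Cooling). P-values for cell classes therefore rest on how class differences vary from preparation to preparation, pooled over the groups of a fit. Those for cooling and sex rest on the spread between preparations. Both spreads may be partly technical.

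Of 799 wells labelled as a single cell, 694 had at least 1000 genes above 0 and were kept. Preparation 2 kept the fewest wells, 45, and preparation 5 kept 75. The median reads per well went from 15421 and 15597 in session A to 198656 in session B and 1526080 and 2573230 in session C, so depth cannot be told apart from session, nor cooling from session C. Cells were clustered without any of the 92 genes and named by markers: 21% of the wells were neurofilament-like (NF-like), 23.6% non-peptidergic-like (NP-like), 9.08% peptidergic-like (PEP-like), 35.7% Th-positive low-threshold-like (TH-like) and 6.48% non-neuronal, and 28 wells received unlike names from the 2 gene sets and were left out. The summed NF markers (Nefh, Pvalb and others) stood between 8935 and 12371 RPM (reads of a gene scaled to a common total of 1e+06 per well) in NF-like preparations and below 4274 in every other neuronal one. PEP-like cells reached the 3 cells needed in 4 preparations, and non-neuronal cells in preparations 3, 4 and 5. At clustering resolution 2, the setting first planned, PEP-like cells reached them in preparations 1 and 3 alone, with 11 and 12 wells, and a cluster of 39 wells led by Beta-s and S100a9 stayed unnamed. PEP-like values of preparations 4 and 5 therefore rest on resolution 1. PEP-like cells held other signal too: summed erythroid markers reached 57883 RPM in preparation 5 and glial markers 15116 RPM in preparation 4. The non-neuronal wells were led by fibroblast genes such as Col1a2 and Dcn. The median number of genes above 0 differed between classes, from 5376 in NF-like to 3515 in NP-like, 3383 in TH-like, 2879 in PEP-like and 1474 in non-neuronal wells.

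NF-like neurons held the largest share of nuclear oxidative phosphorylation reads. Summed over the 83 subunit genes, they gave 67662 ± 4039 RPM (SD, n = 5 preparations), against 47119 ± 4122 in PEP-like (n = 4), 46174 ± 2733 in TH-like (n = 5), 37567 ± 4238 in NP-like (n = 5) and 24806 ± 9464 in non-neuronal cells (n = 3). The order was NF-like, then PEP-like and TH-like with overlapping ranges, then NP-like, then non-neuronal. By preparation, NF-like cells held 62946, 74086, 67693, 67150 and 66437 RPM. NP-like cells held 33013, 36305, 41079, 42876 and 34564 RPM. TH-like cells held 42565, 45855, 47133, 50049 and 45268 RPM, and PEP-like cells 45119, 49673, 51331 and 42353 RPM. No NF-like preparation overlapped any other class. TH-like cells were above NP-like cells within each of the 5 preparations, although the ranges over preparations touched (42565 RPM at the lowest against 42876 RPM at the highest).

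In single wells the same sum had a median of 6.58% of all reads in NF-like, 4.75% in TH-like, 4.70% in PEP-like, 3.74% in NP-like and 2.08% in non-neuronal wells. Of the NF-like wells, 95.9% lay above the NP-like median. Wells varied widely within a class, from 28116 to 111968 RPM in NF-like and from 8836 to 84010 RPM in NP-like cells. Because RPM are shares of a cell's reads, a higher value can come from more of these transcripts or from fewer of others. The cytosolic ribosomal protein genes, which make up a similar share of the reads, had their lowest sum in NF-like cells within every preparation: it was 35664 ± 8201 RPM in NF-like, 45839 ± 10183 in NP-like, 46467 ± 10044 in TH-like and 48003 ± 7942 RPM in PEP-like cells. Their part in the result was not tested.

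**Figure D1:**
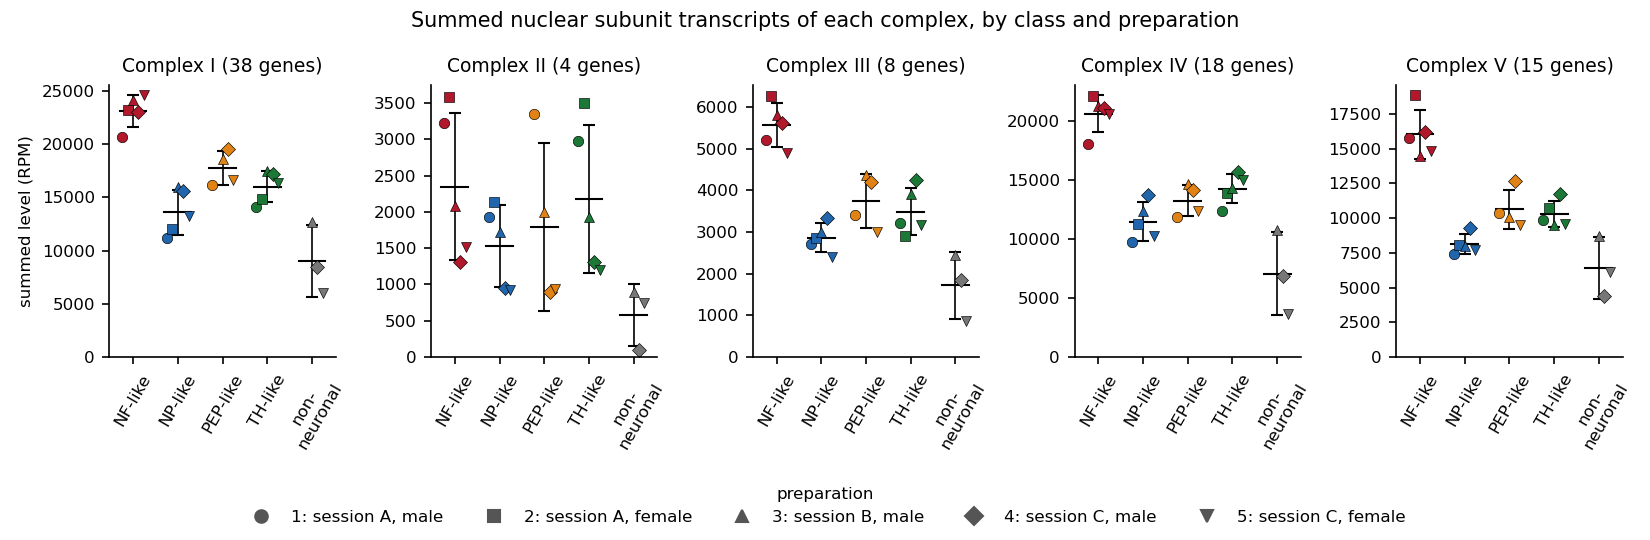
Summed level in RPM (vertical axis, from 0) of the nuclear subunit genes of each complex, for NF-like, NP-like, PEP-like, TH-like and non-neuronal cells; each point is 1 preparation (shapes as in the key), lines are means and whiskers the SD. NF-like preparations sit above those of every other class in complexes I, III, IV and V, while in complex II the neuron classes overlap and session A stands above session C.

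The difference was not equal across complexes. The ratio of NF-like cells to the mean of the other 3 neuron classes, taken within each preparation, was 1.57 ± 0.16 over all subunits (n = 5, range 1.40 to 1.80). It was 1.51 ± 0.16 for complex I, 1.71 ± 0.29 for complex III, 1.60 ± 0.11 for complex IV and 1.68 ± 0.21 for complex V. For complex II it was 1.26 ± 0.15. Sums of complex V in NF-like cells ran from 14446 to 18872 RPM, above the highest value of any other neuron class, 12633 RPM in PEP-like cells. Complex III was the smallest of the complexes that did not overlap, with 4910 to 6273 RPM in NF-like and 2394 to 4377 RPM across the other neuron classes.

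Gene by gene, the comparison was made with limma on log2(mean RPM + 5), the preparation as a block, and Benjamini-Hochberg adjustment over all 10437 genes whose mean reached 5 RPM. Of the 92 genes 83 passed that filter. The planned model held 5 groups, with the non-neuronal cells included (the 5-group model). A second model held the neuron classes only, and was added after seeing the data, when the uneven non-neuronal preparations were found to widen the errors: the median standard error (SE) of the 83 genes in the NF-like comparison was 0.36 with 5 groups and 0.15 with neurons only. Fold estimates in the neuron classes are the same in both, and both sets of calls are given.

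NF-like cells had 15 of the 83 genes higher and 0 lower in the 5-group model, where 4.22% of all genes were called higher and 2.44% lower. At an unadjusted p under 0.05 there were 44, against 1831 of all 10437 genes. With neurons only, 58 were higher and 0 lower, against 9.03% and 5.48% of 9970 genes. The median log2 difference over the 83 genes was 0.69, against 0.04 over all genes, and 77 of 83 were positive. Without the block the counts were 4 and 32, and edgeR on summed reads called 4. For these settings and those that follow, the share of all genes called was not taken. Whether the 83 genes exceeded it there is not known. Leaving out preparation 1 or preparation 2 left 6 each in the 5-group model, and leaving out preparation 5 gave 23. With neurons only, leaving out any preparation left between 50 and 56. Reads per well differed with the class: in the clusters named NF-like the median well held 1.69 to 3.35 times its preparation's median reads. With every cell thinned to 3000 reads the counts were 2 with 5 groups and 33 with neurons only, and a fit of wells of 3000 to 5000 genes, which left neuron classes only, without NF-like preparation 5 and TH-like preparation 2, called 49, against 58 in all wells.

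Complex I, the NADH dehydrogenase, had 3 of 36 tested genes called higher in NF-like cells with 5 groups and 26 with neurons only. Beside this count and those of the complexes that follow, 4.22% and 9.03% of all genes were called higher. Ndufs3, a core subunit of the arm that receives electrons, had 192.6, 153.6, 344.6, 127.2 and 142.6 RPM in NF-like preparations 1 to 5 against 85.6, 83.3, 204.5, 52.5 and 44.6 RPM in NP-like ones. NF-like cells were the higher of the pair in every preparation, and in both classes preparation 3 had the highest value. The log2 difference from the other neuron classes was 1.25 (SE 0.36, limma adjusted p = 0.038 with 5 groups, 0.0028 with neurons only). Ndufb10, an accessory subunit of the membrane arm, differed by 1.02 (adjusted p = 0.0040 and 6.0e-06 by limma). Some complex I genes had small estimates: Ndufv1, which carries the NADH site, had a log2 difference of -0.13, Ndufv3 0.03 and Ndufs4 0.17. None of them passed in either model, which does not show that the classes hold like amounts.

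Ndufa4, named for complex I and now assigned by many authors to complex IV, gave the most reads of the Nduf genes. It had 2667, 2941, 3018, 2474 and 2957 RPM in NF-like cells and 1235, 1191, 1982, 1855 and 1480 RPM in NP-like cells. TH-like cells held 1605 to 2217 RPM and PEP-like cells 1654 to 2219 RPM. The lowest NF-like preparation therefore lay above the highest of every other neuron class (log2 difference 0.69, SE 0.20 and 0.10, limma adjusted p = 0.035 and 8.5e-06). Its 5-group call is close to the threshold: it was lost when any of preparations 1, 2, 3 or 5 was left out, with log2 differences of 0.62 to 0.74.

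Complex II, the succinate dehydrogenase, had 0 of 4 genes called in either model. At an unadjusted p under 0.05 there were 0 of 4 with 5 groups and 3 of 4 with neurons only, and all 4 log2 differences were positive. Over all genes 1831 of 10437 and 2624 of 9970 had such a p. Sdhb, its iron-sulphur subunit, had 2345, 2385, 1278, 778 and 927 RPM in NF-like cells and 2447, 2710, 1234, 798 and 769 RPM in TH-like cells. The 2 classes overlapped and followed the sessions together. The log2 difference of NF-like cells was 0.32 for Sdhb (SE 0.40 and 0.14, limma adjusted p = 0.79 and 0.13), 0.63 for Sdha, 0.26 for Sdhc and 0.59 for Sdhd. These misses do not show that the classes hold like amounts: the SE of Sdha was 0.45 with 5 groups and 0.23 with neurons only.

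In complex III, the cytochrome bc1 complex, 1 of 8 genes was called with 5 groups and 6 with neurons only. Uqcrh, the hinge protein that docks cytochrome c1, had 1368, 1708, 1646, 1663 and 1433 RPM in NF-like cells. NP-like cells had 687, 910, 809, 945 and 704 RPM, PEP-like cells 727 to 1314 RPM and TH-like cells 678 to 1243 RPM. The groups did not overlap, and the log2 difference was 0.83 (SE 0.21 and 0.12, limma adjusted p = 0.016 and 1.7e-05). Uqcrc1, a core protein of the complex, missed the threshold in both models at 0.68.

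Complex IV, the cytochrome c oxidase, had 6 of 12 tested genes higher with 5 groups and 10 with neurons only. Both counts include Cox7a1, described below, which passed the 5 RPM filter through its NF-like values alone. Cox4i1, the widely expressed form of its largest nuclear subunit, had 2807, 3277, 2579, 3450 and 3606 RPM in NF-like cells and 1266, 1585, 1386, 2032 and 1765 RPM in NP-like cells (log2 difference from the other neuron classes 0.78, SE 0.15 and 0.09, limma adjusted p = 0.0023 and 4.3e-07). The lowest NF-like preparation was reached by PEP-like preparation 4 at 2631 RPM and by TH-like preparation 5 at 2582 RPM, so those classes overlapped. Cox5a differed by 1.47 (SE 0.37 and 0.26, limma adjusted p = 0.016 and 0.00017), Cox6b1 by 0.80, Cox7b by 0.75 and Cox7c by 0.76. Cox6a1 had a log2 difference of 0.22 with neither model calling it, which does not show like amounts.

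Complex V, the ATP synthase, had 5 of 15 genes higher with 5 groups and 14 with neurons only. Atp5b, the catalytic beta subunit, had 1184, 937, 877, 1115 and 958 RPM in NF-like cells. NP-like cells had 412 to 561 RPM, TH-like cells 466 to 684 RPM and PEP-like cells 666 to 825 RPM, so the groups did not overlap (log2 difference 0.74, SE 0.22 and 0.12, limma adjusted p = 0.038 and 3.8e-05). Atp5k, the membrane subunit e, had 966, 1863, 1780, 1890 and 1360 RPM in NF-like cells against 378, 614, 913, 807 and 398 RPM in NP-like cells (log2 difference from the other neuron classes 1.01, limma adjusted p = 0.0054 and 3.4e-07). Atp5g2, one of 3 genes for subunit c, was the 1 gene of complex V not called in either model (0.44).

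Counted without a model, 4 of the 83 genes had every NF-like preparation above every preparation of the other neuron classes: Atp5b, Uqcrh, Ndufa4 and Cox7a1. Over all tested genes 1.28% did so. Cox7a1 passed the 5 RPM filter through its NF-like values alone, so the filter favoured its place in this count. None of the 83 had every NF-like preparation below the rest, against 0.422% of all genes. No NP-like, PEP-like or TH-like separation of this kind was seen for any of the 83, in either direction.

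**Figure D2:**
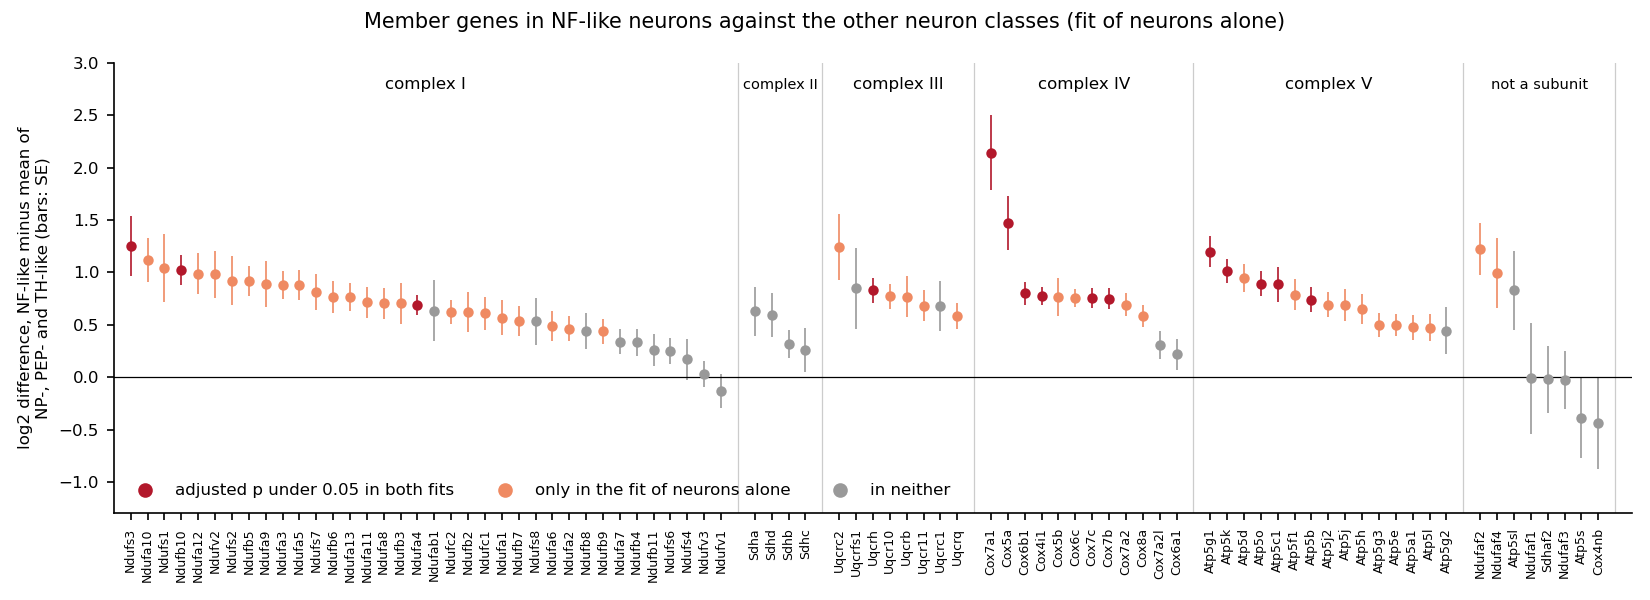
Log2 difference of NF-like cells from the mean of the NP-like, PEP-like and TH-like cells (vertical axis) for each of the 83 tested genes, grouped by complex; points are estimates of the model with neurons only, bars the SE, and colours show which models called the gene. All but a few points lie above 0, around the median of 0.69; complex II genes lie between 0.26 and 0.63 and Cox7a1 stands highest at 2.14.

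Cox7a1 had the largest log2 difference of the 83. It codes for the form of a small cytochrome c oxidase subunit known from heart and skeletal muscle, and Cox7a2 codes for the widely expressed form. It had 15.5, 22.2, 42.9, 29.5 and 18.7 RPM in NF-like preparations, and 2.8, 0, 3.2, 0.1 and 0 RPM in NP-like ones. TH-like cells had 0 to 4.4 RPM, PEP-like cells 12, 1.4, 0.9 and 0 RPM. Every NF-like preparation was above every other, and the log2 difference was 2.14 on the log2(RPM + 5) scale (SE 0.36, limma adjusted p = 0.00034 with 5 groups, 9.4e-05 with neurons only). That scale understates the change of genes this low. Cox7a1 passed the 5 RPM filter through its NF-like values alone, so it was tested because it was high there. Its p-values and lack of overlap are therefore no separate support for the difference. With cells thinned to 3000 reads the difference was 1.17 and the call was lost in both models.

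The level was low nevertheless. Cox7a1 was read in 61 NF-like wells (41.8% of them), 8 NP-like (4.88%), 5 PEP-like (7.94%) and 16 TH-like wells (6.45%), with median reads per well of 81626, 120932, 56827 and 236704 in that order. None of the 45 non-neuronal wells held a read, which allows a share of up to 6.67% of such wells (counting error only). Within the set Cox7a1, Cox7a2 and Cox7a2l it made up 0.71% ± 0.33 (SD, n = 5) of the reads in NF-like cells, and Cox7a2 85.3% ± 3.9.

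Cox6a2 and Cox8b, the other muscle-type oxidase subunits, were under the 5 RPM filter and were not tested. Cox6a2 had 3.7, 2.8, 9.2, 25.6 and 12 RPM in NF-like cells and no more than 1.5 RPM in any preparation of another class. It was read in 21 NF-like wells of 27 in all. Cox8b was read in 6 wells, all NF-like, with 0.2, 0, 1.6, 0.8 and 9.4 RPM by preparation. The remaining untested genes were Ndufa4l2, Cox4i2, Ndufs5, Cox6b2, Sdhaf1, Cox8c and Cox7b2. They were read in at most 42 of 694 wells, and Cox7b2 in none, which allows up to 0.432% of wells. Cox4i1 made up 99.1% or more of the reads of Cox4i1 and Cox4i2 in the mean of every class.

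The start-site region of Cox7a1 is printed beside that of Cox7a2 because Cox7a1 had the largest class difference of the 83 and Cox7a2 is the widely expressed form of the same subunit. Both are the 200 bases upstream of the RefSeq start in build GRCm38.p6, 5′ to 3′ on the gene's strand, Cox7a1 at chr7:30183971-30184170 (plus strand) and Cox7a2 at chr9:79759854-79760053 (minus strand).
Cox7a1: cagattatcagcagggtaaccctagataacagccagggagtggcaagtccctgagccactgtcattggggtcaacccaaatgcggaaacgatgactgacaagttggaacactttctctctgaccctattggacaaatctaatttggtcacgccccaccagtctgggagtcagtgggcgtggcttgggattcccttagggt
Cox7a2: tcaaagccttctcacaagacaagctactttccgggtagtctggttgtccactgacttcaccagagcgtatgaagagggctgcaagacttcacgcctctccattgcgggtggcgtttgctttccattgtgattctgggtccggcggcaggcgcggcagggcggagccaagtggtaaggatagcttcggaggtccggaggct
The Cox7a1 stretch holds 4 CpG and 52% G and C, the Cox7a2 stretch 12 CpG and 57.5%. Neither holds any of the 4 motifs searched below.

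Subunit c of ATP synthase, which forms the rotating ring, is made from 3 genes with different leader peptides and the same mature protein. Atp5g1 had 3276, 3629, 1214, 1060 and 916 RPM in NF-like cells, 996, 854, 317, 475 and 297 RPM in NP-like cells and 1798, 1559, 459, 630 and 431 RPM in TH-like cells. Within each preparation NF-like cells were highest and NP-like cells lowest of these 3 classes, and both preparations of session A were above the other 3 in each class. The log2 difference of NF-like cells from the other neuron classes was 1.20 (SE 0.23 and 0.15, limma adjusted p = 0.0018 and 1.2e-06), and that of NP-like cells was -1.06 (adjusted p = 0.0061 and 9.2e-06). Atp5g3 ran against the sessions, with 968, 794, 989, 1718 and 1367 RPM in NF-like cells, and its class difference was smaller (0.50, limma adjusted p = 0.14 and 0.0024).

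As a share of the 3 genes, Atp5g1 made up 54.2% ± 18.6 in NF-like cells, 44.7% ± 21.6 in TH-like and 37% ± 15 in NP-like cells (SD, n = 5 each) and 39.7% ± 11.6 in PEP-like cells (n = 4). In NF-like cells the share by preparation was 69.9%, 77%, 50.2%, 36.5% and 37.4%. That range, from 36.5% to 77%, was wider than the range of the class means.

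Start-site regions are shown for Atp5g1 and Atp5g3, which moved apart between sessions, and for Atp5k, which holds a whole NRF1 motif. Atp5k is 1 of 9 genes described here with that motif in the window searched below. The other such genes are not printed. Capitals mark a match: in Atp5g3 the ERR half-site read on the opposite strand, in Atp5k the NRF1 motif, matched on both strands in overlap. The stretches are chr11:96075632-96075831, chr2:73911327-73911526 and chr5:108434400-108434599, all on the minus strand of GRCm38.p6 (RefSeq).
Atp5g1: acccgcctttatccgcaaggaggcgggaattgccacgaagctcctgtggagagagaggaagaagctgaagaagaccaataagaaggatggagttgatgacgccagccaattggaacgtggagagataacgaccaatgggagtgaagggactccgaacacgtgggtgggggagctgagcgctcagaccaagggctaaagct
Atp5g3: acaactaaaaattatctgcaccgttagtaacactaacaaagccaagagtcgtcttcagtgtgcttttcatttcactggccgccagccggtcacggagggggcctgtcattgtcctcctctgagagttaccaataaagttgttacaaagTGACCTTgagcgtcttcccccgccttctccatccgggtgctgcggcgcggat
Atp5k: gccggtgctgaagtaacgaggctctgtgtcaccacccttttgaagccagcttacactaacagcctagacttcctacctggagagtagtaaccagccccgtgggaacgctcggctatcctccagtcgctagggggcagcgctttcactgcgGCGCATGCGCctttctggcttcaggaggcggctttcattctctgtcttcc
NRF1, ERR, YY1 and the ETS factor GABP are known regulators of respiratory chain genes. Their motifs were searched on both strands of 300-base windows, from 250 before to 50 after each RefSeq start, and 73 of the 92 genes had such a window by symbol (78 windows). The NRF1 motif GCGCATGCG was in 11.5% of the 78 windows and 1.75% of all 32851 windows. The ERR half-site AAGGTCA was in 10.3% and 4.72%, the YY1 motif AAGATGGCG in 8.97% and 1.40%, and the ETS core CCGGAAG in 24.4% and 8.86%. A match is a description of letters, not a binding site, and none of the 4 motifs contains another. The windows with an NRF1 motif were those of Atp5g2, Atp5k, Atp5l, Cox6a1, Ndufa11, Ndufa8, Ndufaf4, Uqcr11 and Uqcrc1. Those with an ERR half-site were of Atp5e, Atp5g3, Atp5k, Atp5l, Ndufb2, Ndufb4, Ndufs5 and Sdhd. A link between any motif and the levels of these genes was not tested.

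NP-like neurons were the lowest neuron class. They had 0 genes higher and 4 lower of 83 with 5 groups, where 2.70% of all genes were called higher and 2.55% lower, and 0 higher and 40 lower with neurons only (5.78% and 5.73% of all genes). The median log2 difference was -0.47, against 0.02 over all genes. The 4 genes were Atp5g1, Atp5k, Atp5j and Cox6b1. Cox6b1 had 943, 1036, 872, 816 and 566 RPM in NP-like cells against 1119, 1892, 1104, 1269 and 741 RPM in TH-like cells, a log2 difference of -0.72 from the other neuron classes (limma adjusted p = 0.018 and 3.6e-05). Without the block the counts were 0 and 7, and edgeR on summed reads called 1, settings for which the share of all genes was not taken. Leaving out preparation 2 left 0 and leaving out preparation 1 left 1 with 5 groups. Since each class is compared with the mean of the other 3, the NF-like and NP-like comparisons share all their cells.

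TH-like and PEP-like neurons lay between them. TH-like cells had 0 genes called in either direction with 5 groups, where 2.53% of all genes were called higher and 1.68% lower. At an unadjusted p under 0.05 there were 0, against 1437 of all 10437 genes. With neurons only 3 were lower, where 5.25% of all genes were called higher and 3.70% lower, so the count is near that share. Among the 3 was Ndufs8, an iron-sulphur subunit of complex I, at -0.73 (limma adjusted p = 0.50 and 0.039). PEP-like cells had 0 called with 5 groups, where 0.977% of all genes were called higher and 1.01% lower. At an unadjusted p under 0.05 there were 3, against 1663 of all 10437 genes. With neurons only 4 were lower, where 3.01% of all genes were called higher and 6.28% lower. EdgeR on summed reads called 0 in both classes. In PEP-like cells the median over all genes was itself -0.21, below the -0.11 of the 83 genes, and centring each preparation on its median turned the neuron-only counts to 4 higher and 1 lower. The share of all genes called was not taken for centring or edgeR.

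The 4 of 83 genes called lower in PEP-like cells with neurons only are a smaller share than the 6.28% of all genes. The called gene with the largest difference was Ndufa9, a complex I subunit at the junction of its arms. It had 77.5, 110, 48 and 24 RPM in PEP-like preparations 1, 3, 4 and 5, against 131.03, 190.35, 132.8 and 106.05 RPM in NP-like cells of the same preparations. PEP-like cells were lower in each, with a log2 difference of -1.35 from the other neuron classes (SE 0.44 and 0.24, limma adjusted p = 0.12 and 0.00070). Erythroid and glial markers were high in preparations 5 and 4 of this class, as given above, and the part they play was not tested.

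Against NP-like cells directly, TH-like cells had 14 of 83 genes higher and 0 lower with neurons only (4.63% and 3.61% of all genes). With 5 groups 0 were called (2.39% of all genes higher and 1.95% lower). There 7 of the 83 had an unadjusted p under 0.05, against 1210 of all 10437 genes. Atp5j, a peripheral stalk subunit of ATP synthase, had 517, 578, 621, 924 and 886 RPM in TH-like and 303, 348, 359, 460 and 333 RPM in NP-like cells (log2 difference 0.93, limma adjusted p = 0.11 and 0.00083). The 2 classes did not overlap. Uqcr10, a small subunit of complex III, differed by 0.76 (limma adjusted p = 0.66 and 0.00054) and Ndufb9 by 0.67 (0.19 and 0.0028). Leaving out preparation 1, 2 or 3 lowered the 14 to 6, 5 and 5.

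PEP-like cells had 16 genes higher and 1 lower than NP-like cells with neurons only (3.24% and 5.81% of all genes). With 5 groups 0 were called (1.08% of all genes higher and 1.99% lower). There 8 had an unadjusted p under 0.05, against 1556 of all 10437 genes. Uqcr10 had 785, 993, 1332 and 1055 RPM in PEP-like and 438, 755, 672 and 434 RPM in NP-like cells of the same preparations (log2 difference 0.91, limma adjusted p = 0.42 and 0.00025). Atp5g1 differed by 0.85 (adjusted p = 0.16 and 0.0049 by limma), but its direction turned with clusters at resolution 2, to -0.58 (5-group model, limma adjusted p = 0.48). The 1 lower gene was Ndufa9 again, at -1.21. Leaving out preparation 1 or 3 lowered the 17 to 7 each.

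Within a class, clusters differed as well. These clusters come from other genes of the same cells, and their differences were not tested. Among NF-like wells, a cluster of 20 led by LOC433944 and Htr3a held 76824 RPM of subunit reads, a cluster of 70 led by Pvalb, a marker of proprioceptors, held 75041 RPM, and a cluster of 56 led by Thy1 and Fxyd7 held 54289 RPM (means over preparations). The Thy1 cluster was lower in each preparation it had, at 50591, 55807, 55500 and 55259 RPM, where the Pvalb cluster had 73019, 72122, 82832 and 71760 RPM. The means of summed mitochondrially encoded reads were 21778 RPM in the Thy1 cluster and 16134 RPM in the Pvalb cluster. The Thy1 mean covers preparations 1, 3, 4 and 5 and the Pvalb mean all 5. These reads were not compared within preparations, so their direction is not settled. Cox7a1 was highest in the Htr3a cluster, at 92.3 RPM against 18.5 (Thy1) and 14.3 (Pvalb), and so was Cox6a2, at 45.4 RPM against 13.1 and 0.4 RPM.

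TH-like wells split as well. A cluster of 100 led by Fam19a4 and Wfdc2 held 44517, 46732, 51109, 61640 and 54567 RPM in preparations 1 to 5. A cluster of 56 led by Th and Fam38b held 33705, 34016, 29174 and 20309 RPM in preparations 1, 3, 4 and 5, lower in each. Their Th levels were alike, 2327 and 2331 RPM, and ribosomal protein reads were 49111 and 44905 RPM. As means over the preparations each cluster had, mitochondrially encoded reads were 4119 RPM in the Fam19a4 cluster and 15226 RPM in the Th and Fam38b cluster. Malat1, a nuclear RNA, stood at 1946 and 3594 RPM. The part of these reads in the difference was not tested. The mean of the Th and Fam38b cluster, 29301 RPM, lay below those of the 3 NP-like clusters (33304 RPM for the cluster led by Tmem233, 35583 RPM for that led by Rnf44 and holding Sst and Nppb, and 46840 RPM for that led by Cd3d and Nmb, which came from session C alone). These means cover different preparations: in preparation 1 the Th and Fam38b cluster, at 33705 RPM, was above the Tmem233 and Rnf44 clusters at 33352 and 31569 RPM.

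**Figure D3:**
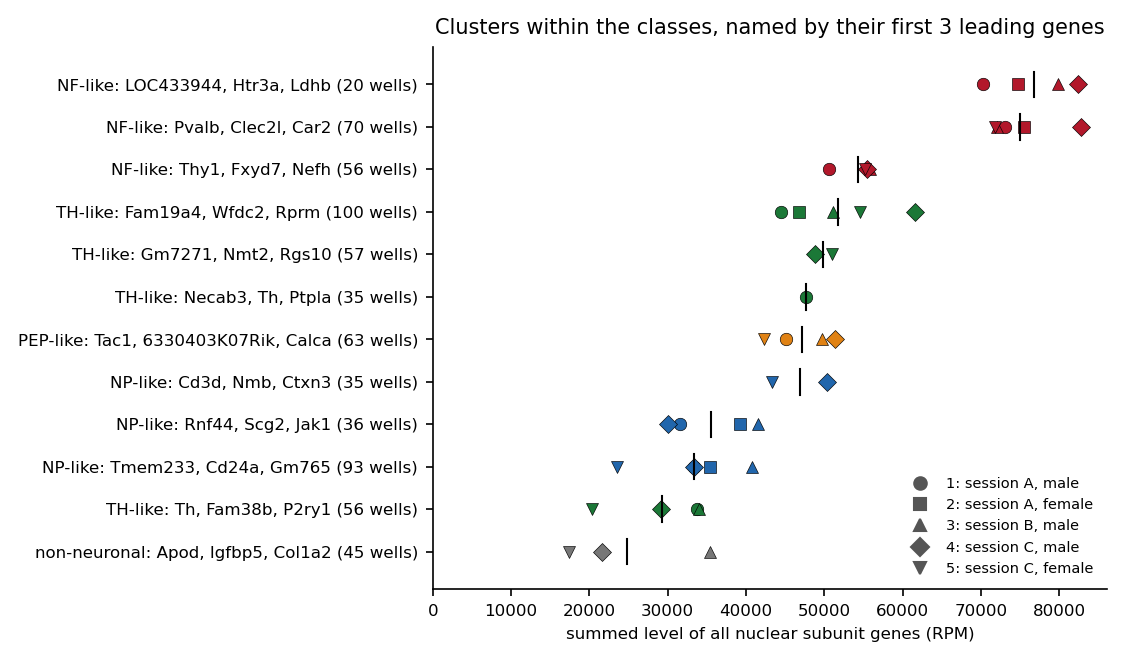
Summed level of all nuclear subunit genes in RPM (horizontal axis, from 0) in each cluster, named by its first leading genes; points are preparations (shapes as in the key, colours by class) and vertical lines the means. The LOC433944 and Htr3a cluster and the Pvalb cluster sit highest, at means of 76824 and 75041 RPM, and TH-like clusters spread from 29301 to 51713 RPM.

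Mitochondrially encoded subunit genes of the same complexes did not order the classes in this way. Their sum was 16766 ± 9049 RPM in NF-like (n = 5), 13714 ± 7697 in NP-like (n = 5), 17924 ± 8815 in PEP-like (n = 4), 7817 ± 4663 in TH-like (n = 5) and 22376 ± 11503 RPM in non-neuronal cells (n = 3), with overlapping ranges. The highest mean was thus that of the non-neuronal cells. Within each preparation the TH-like sum was the lowest of the classes, at 15541, 6810, 7047, 6842 and 2844 RPM in preparations 1 to 5. Preparation 1 was the highest in NF-like cells at 32948 RPM, where the others lay between 12416 and 13049 RPM.

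Non-neuronal wells held fewer reads of these genes. Their sums were 35464, 21569 and 17385 RPM in preparations 3, 4 and 5, lower in each than every neuron class of the same preparation. Of the 83 genes 0 were higher and 61 lower than in neurons with 5 groups, where 8.62% of all genes were called higher and 41.6% lower. The median log2 difference was -1.61 and that of all genes was -1.06. The median log2 level over all genes was 3.78, 3.05 and 2.58 in non-neuronal preparations 3, 4 and 5 and 4.31 to 4.92 in the neuronal ones. With every preparation centred on its own median, a larger shift than -1.06, the split was 20 higher and 10 lower. EdgeR on summed reads called 3 higher and 23 lower. The share of all genes called was not taken for centring or edgeR, so whether the 83 genes exceeded it there is not known.

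Ndufv1 had the largest fall, with 200, 2.3 and 4.8 RPM in non-neuronal preparations 3, 4 and 5 against 202.2 to 398.6 RPM in the neuron classes (log2 difference -3.60, SE 0.52, limma adjusted p = 1.3e-05). Preparation 3 was near the neuronal level and the other preparations far below it. Uqcrc1 differed by -3.31, Atp5j2 by -2.77, Sdha by -2.62 and Cox6a1 by -2.56. Summed neuronal markers reached 10559 RPM in the non-neuronal cells of preparation 3 and 1885 and 3259 RPM in preparations 4 and 5, and erythroid markers reached 36243 RPM in preparation 4. Their part in these differences was not tested.

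Sessions differed in single genes more than in sums. Averaged over TH-like, NF-like and NP-like cells, all subunits together held 49128 RPM in session A, 51968 in session B and 51058 RPM in session C. Complex II went from 2890 to 1910 and 1200 RPM. Of the 83 genes, 15 had every session C value above every session A value within each of the 3 classes, where 4.89% of all genes did, and 11 had every one below, where 3.72% did. Session B lay between in 4 of the 15 and 2 of the 11. Sessions A and B share the temperature and differ in depth, and session C differs from both in temperature and depth, so cooling cannot be told apart from session or depth.

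Cox8a, a small oxidase subunit, had 1703, 1269, 3103, 5089 and 4624 RPM in NF-like and 1330, 829, 2415, 4095 and 4509 RPM in TH-like cells. Session A was lowest, B between and C highest in both. Ndufa6, a complex I subunit of the LYR family, had 326, 338, 295, 1203 and 1226 RPM in NF-like, 140.5, 198.1, 151.3, 761 and 611 RPM in NP-like and 205.9, 260.1, 195.1, 829 and 917 RPM in TH-like cells. Sessions A and B lay together there and session C stood apart. In the other direction, Ndufa5 averaged 762, 372 and 222.5 RPM over the classes in sessions A, B and C, Sdhb 2172, 1205 and 729 RPM, and Sdha 385, 214.97 and 108.8 RPM.

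In a fit of cooled against room-temperature preparations with sex as a covariate, Ndufa6 was the 1 gene of 83 called, higher by 1.95 on the log2 scale (SE 0.27, limma adjusted p = 0.040 with 5 groups and 0.015 with neurons only). All genes were called higher in 0.0767% and lower in 0.268% of cases with 5 groups, and 0.291% and 0.742% with neurons only. The design leaves 2 residual degrees of freedom. With 5 groups 21 of the 83 had an unadjusted p under 0.05, as did 1803 of all 10437 genes. Leaving out preparation 2, 4 or 5 left 0 called, and leaving out preparation 3 left 8. Females and males, compared within sessions with 1 residual degree of freedom, gave 0 genes in either direction in limma, with 0 at an unadjusted p under 0.05, and 0 in edgeR. Over all genes limma called 0% with 5 groups, and 0.01% higher and 0.12% lower in females with neurons only. With 5 groups 689 of all 10437 genes had an unadjusted p under 0.05.

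**Figure D4:**
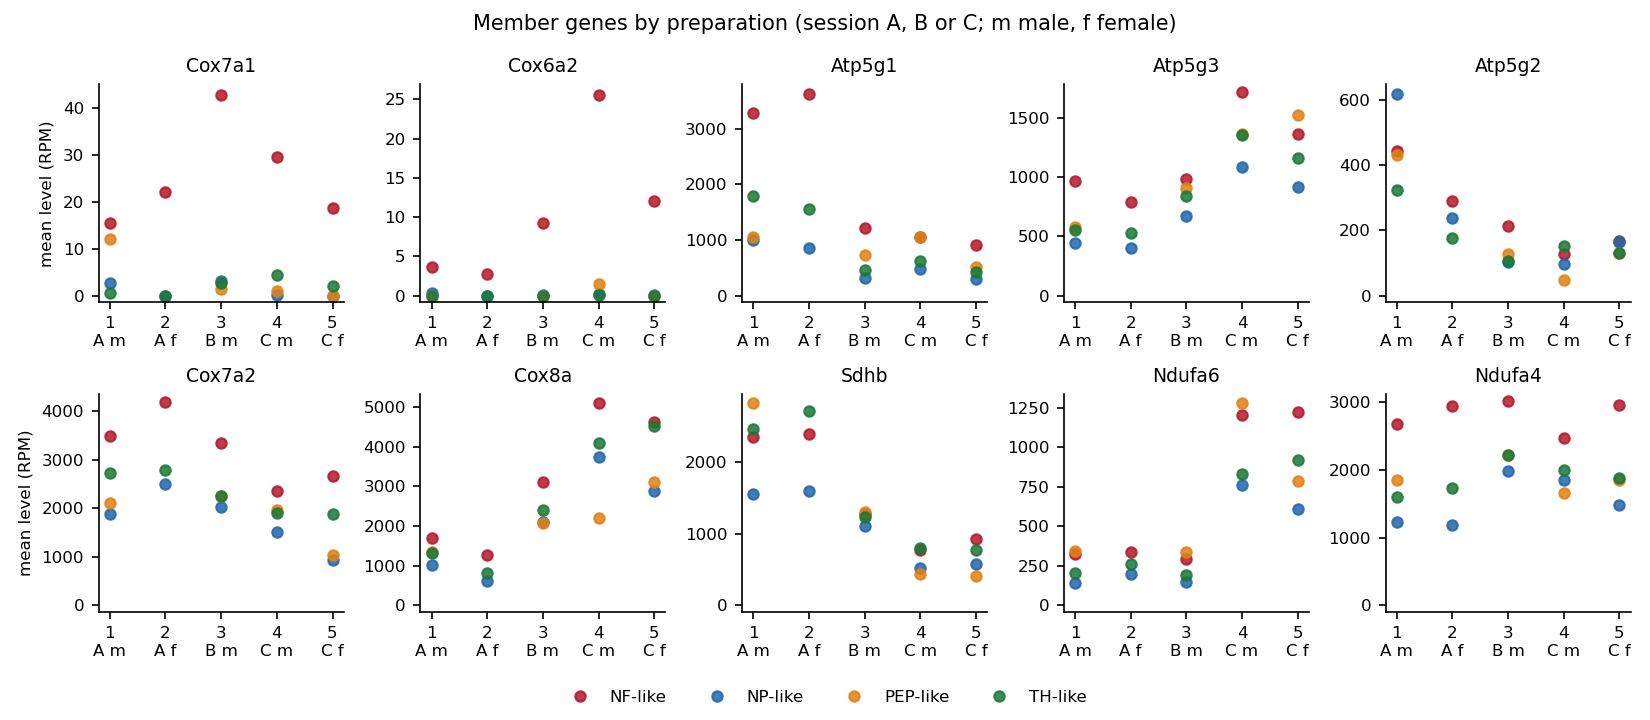
Mean level in RPM (vertical axes, from 0, a scale of its own for each gene) of Cox7a1, Cox6a2, the 3 Atp5g genes, Cox7a2, Cox8a, Sdhb, Ndufa6 and Ndufa4 in preparations 1 to 5, coloured by neuron class. Cox7a1, Cox6a2 and Ndufa4 are highest in NF-like cells in every preparation, Ndufa6 stands high in the preparations of session C, and Atp5g1 and Sdhb stand high in those of session A in each neuron class with all 5 preparations.

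Genes of the same pathway outside the name rule were compared in the same way. Of 36 electron carriers, assembly factors and exchangers, 31 were tested with 5 groups, and 4 were higher and 0 lower in NF-like cells (11 of 32 and 0 with neurons only). Over all genes 4.22% were higher and 2.44% lower with 5 groups, and 9.03% and 5.48% with neurons only. Slc25a5 and Slc25a4, which exchange ADP and ATP across the inner membrane, differed by 0.98 and 0.77 on the log2 scale. Slc25a5 had 560, 646, 639, 623 and 650 RPM in NF-like cells and 200.9, 248.8, 241.1, 353 and 303 RPM in NP-like cells, without overlap. Usmg5, a small protein bound to ATP synthase, differed by 0.72 and Atpaf1, an ATP synthase assembly factor, by 1.74 (limma adjusted p = 0.0038 and 0.0018). Cycs, cytochrome c itself, was called with neurons only (0.81, limma adjusted p = 0.22 and 9.2e-06).

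Of 17 genes of the tricarboxylic acid cycle and pyruvate dehydrogenase 16 were tested, and 1 was higher with 5 groups and 11 with neurons only, none lower, beside the 4.22% and 9.03% of all genes called higher. Pdhb, the beta subunit of the dehydrogenase that makes acetyl-CoA, had 454, 499, 1298, 791 and 698 RPM in NF-like cells and 126.5, 137.1, 448, 225.3 and 196.03 RPM in NP-like cells. NF-like cells were higher in each preparation and highest of all classes there (log2 difference 1.58, SE 0.34 and 0.19, limma adjusted p = 0.0043 and 6.2e-07).

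Of 19 regulators of mitochondrial biogenesis, 16 were tested with 5 groups and 2 were higher, 0 lower (3 of 17 with neurons only), beside the same 4.22% and 9.03% of all genes, so these counts are 1 or 2 genes above that share. Esrrg, which codes for the nuclear receptor ERR gamma, had 43.7, 66.3, 32.5, 21.9 and 19 RPM in NF-like cells, and at most 4.8 RPM in any other neuronal preparation. The NF-like preparations did not overlap the rest (log2 difference 2.74, SE 0.33, limma adjusted p = 7.3e-06 and 1.3e-06). Among the neuron classes, only the NF-like values of Esrrg reached the 5 RPM of the filter. It was thus tested because it was high there, and its p-values and lack of overlap are no separate support for the difference. Esrrg is in both counts of regulators above. Esrra, for ERR alpha, differed by 1.62 (limma adjusted p = 0.033 and 0.011), though TH-like preparation 2 and PEP-like preparation 3 reached NF-like levels at 54 and 42.6 RPM. Ppargc1a, for the coactivator PGC-1 alpha, had 42.3, 16.4, 30.1, 26.5 and 12.1 RPM in NF-like cells, overlapped by TH-like preparation 1 at 19.7 RPM, and was called with neurons only (1.66, limma adjusted p = 0.12 and 0.0014). Esrrg and Ppargc1a are single genes of a list that was written with earlier results of these data known.

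**Figure D5:**
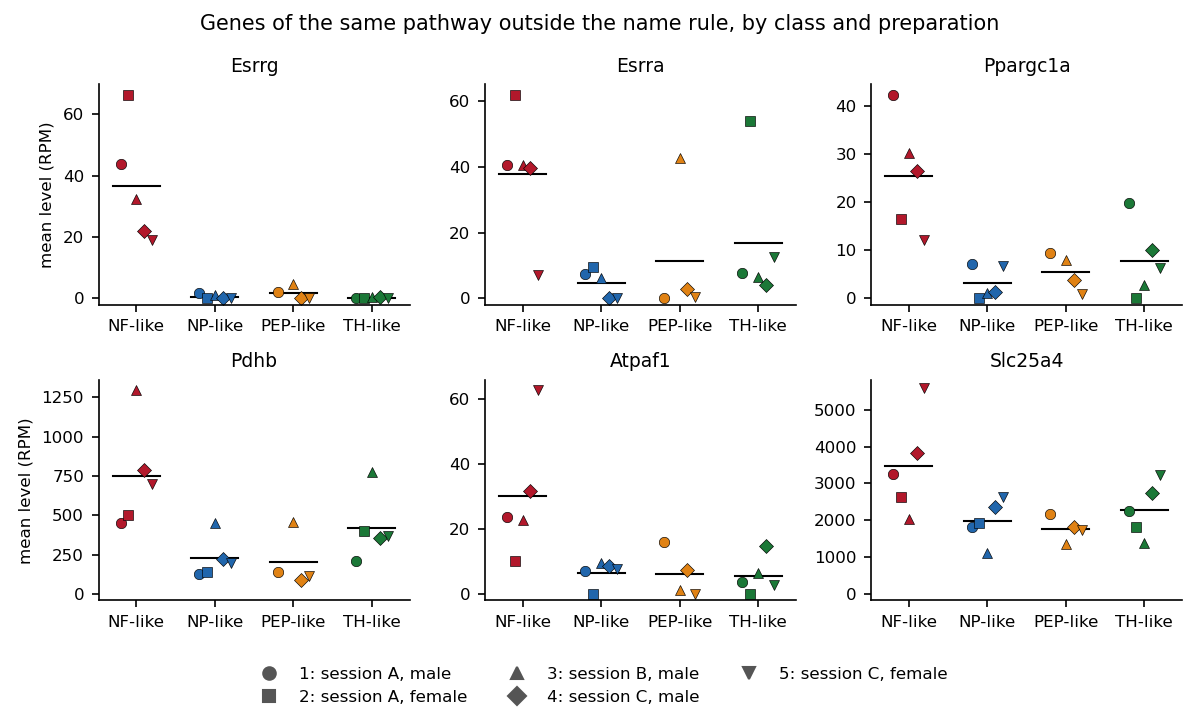
Mean level in RPM (vertical axes, from 0, a scale of its own for each gene) of Esrrg, Esrra, Ppargc1a, Pdhb, Atpaf1 and Slc25a4 by neuron class; points are preparations (shapes as in the key) and lines the means. The NF-like preparations of Esrrg lie between 19 and 66.3 RPM, above every preparation of the other classes, while Esrra overlaps between classes.

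Wells without a cell set the background. Of the 17 empty wells 14 were on the RPM scale, and their median was 26 reads of subunit genes, or 48724 RPM. Of the 15 medium wells 14 were, with a median of 99.5 reads and 48964 RPM. The kept single cells had a median of 5347 such reads and 45898 RPM. Single control wells ranged from 9741 to 61952 RPM. In all genes the empty wells held a median of 646 reads and the medium wells 3906 reads, against 15421 reads in the cells of preparation 1. Some kept wells lay below the medium-well median: the fewest reads were 2459, 3661 and 2733 in preparations 1, 2 and 5. The control wells were not split by session.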

How the data were processed

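Single cells of mouse lumbar dorsal root ganglia were read at the 5′ end of each transcript. The authors deposited 1 table of RPM, reads per gene scaled to a total of 1000000 per well (1e+06), over 25333 rows and 864 wells. Mapping was with Bowtie (version not given in the sources used here) to mm9, per the submitters' processing notes. No molecular identifiers were counted, so RPM are shares of reads, and 5′ reads were not divided by length. The values of 4 control columns were whole numbers only and were taken as a score whose scale is not known, per the values in the deposited file; they were not used. Whole reads were recovered from the smallest step for 841 columns, and 99.6% of values above 0 in kept wells were whole within 0.1. Copies of a gene were summed, and 1217 repeat element rows were left out of gene tests.

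Wells labelled as a single cell with 1000 or more genes above 0 were kept, and no doublet caller was run. No well repeated another. Cells were clustered with scanpy 1.11.5 and leidenalg 0.10.2, on log2 values with a pseudocount of 100 RPM and centred by session, in 2 random sets of genes without the 92 described here (600 variable genes, 15 components, 15 neighbours). Clusters were named by marker lists. Resolution 1 was used and resolution 2 was the alternative, the reverse of the plan, because more clusters could be named (3 resolutions and 3 rules for leading genes were tried, judged by naming alone). Names from both sets were alike in 96.0% of wells. Members were tested in wells of like name, other genes with the names from the set they were not in. The 92 genes, the pathway lists and the tests were chosen with earlier results of these data known.

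Mean RPM over the cells of a class and preparation (at least 3 cells) entered limma 3.58.1 (trend, robust) as log2(mean RPM + 5), two-sided, with Benjamini-Hochberg adjustment at 0.05 over all genes whose mean reached 5 RPM, the preparation as a block. The block pairs classes because they were picked from the same preparation. Cooling and sex used the mean of TH-like, NF-like and NP-like values per preparation. The fit was tested on simulated data. EdgeR 4.0.16 (quasi-likelihood, TMM) on summed recovered reads was an alternative, beside other pseudocounts, filters, scaling, thinning, cluster resolution and leaving out each preparation. Genes picked for description by rule were, per complex, the one with the most reads, the called one with the largest difference in each comparison, those called against the main direction, all paralogues, the 3 pathway genes of each list with the largest difference and called regulators. Not all of them are given by preparation in the text: Atp5e, Cox5b, Cox7a2 and Cox7a2l, among others, are not. Others described were chosen after their values were seen: Ndufb10, Ndufv3, Ndufs4, Cox7c, Slc25a5, Usmg5, Cycs, Atp5b, Atp5k and Ndufa5. Promoter windows and their coordinates are from RefSeq, build GRCm38.p6, and no coordinate of the mm9 files is given.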

Additional observations from a re-analysis of the deposited data

Results flagged for a closer look

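Within groups of 4 or 5 preparations, genes picked for description were examined in each class for 1 preparation far from the rest, and 6 such groups were found. They are 5.04% of the groups examined, and chance alone gives about 1 in 20. Atp5g2 in NP-like cells had 619 RPM in preparation 1 and 95.5 to 236.9 RPM in the others. Cox4i1 in PEP-like cells had 2631 RPM in preparation 4 and 1613 to 1700 RPM in the others. Cox4i2 in PEP-like cells had 59.3 RPM in preparation 3 and 0 elsewhere, from 2 wells in all. Cox4nb in TH-like cells had 42.6 RPM in preparation 1 and 25.9 to 28.4 RPM in the others. Cox6b1 in NF-like cells had 2763 RPM in preparation 2 and 1581 to 1841 RPM in the others. Ndufs3 in NP-like cells had 204.5 RPM in preparation 3 and 44.6 to 85.6 RPM in the others.

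The 33 wells labelled as holding more than 1 cell enter no comparison. Their subunit reads had a median of 62180 RPM, above the 48964 RPM of the medium wells, with a range from 156.6 to 131173 RPM.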

How the results depend on the processing

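Depth and the spread between preparations limit these counts: session A wells held about 15421 reads at the median, genes under 5 RPM were not tested, and the 5-group model took its error in part from uneven non-neuronal cells. Counts of called genes, in any direction, moved as follows, with the cause not tested. The share of all genes called was taken only for the 5-group and neuron-only models, so the other counts stand without one. Without the preparation as a block (no replicate block) the 5-group counts were 4 for NF-like (15 with it), 0 for NP-like (4) and 3 for the pathway genes (7), and with neurons only they were 32 for NF-like, 7 for NP-like, 1 for PEP-like, 1 for TH-like against NP-like, 2 for PEP-like against NP-like and 15 for the pathway genes; the block changed no other count by more than 1.5 times. A model with neurons only, added after seeing the data, gave 58 for NF-like, 40 for NP-like, 4 for PEP-like, 3 for TH-like, 14 for TH-like against NP-like, 17 for PEP-like against NP-like and 25 for the pathway genes. Centred on the median of all genes, neurons only gave 57, 45, 5, 4, 8, 26 and 25 in that order and 2 for cooling, and the 5-group model gave 8 for NP-like, 1 for PEP-like against NP-like and 30 for non-neuronal cells (61 uncentred). Thinning to 3000 reads gave 2 for NF-like, 1 for NP-like, 1 for PEP-like, 0 for cooling (1 at full depth) and 3 for the pathway genes, and with neurons only 33, 18, 2, then 7 and 6 for TH-like and PEP-like against NP-like, and 12 for the pathway genes. Wells of 3000 to 5000 genes, added after seeing the data, left no non-neuronal group, so their counts stand beside those with neurons only: 49, 28 and 1 for NF-like, NP-like and PEP-like, 1 and 7 for TH-like and PEP-like against NP-like, 0 for cooling and 14 for the pathway genes. Means of log2(RPM + 100) over cells gave 70 for NF-like, 19 for NP-like, 6 for PEP-like and 1 for TH-like, 2 and 1 for TH-like and PEP-like against NP-like, 0 for cooling and 37 for the pathway genes. EdgeR gave 4 for NF-like, 1 for NP-like, 26 for non-neuronal cells and 1 for the pathway genes. A pseudocount of 20 RPM gave 7 for NP-like, 0 for cooling and 13 for the pathway genes; no filter gave 0 for cooling; a filter at 20 RPM gave 3 for cooling and 4 for the pathway genes. Clusters at resolution 2 gave 2 for NP-like, 2 for PEP-like and 13 for the pathway genes.

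Leaving out each preparation in turn gave 6 to 23 for NF-like, 0 to 7 for NP-like, 0 to 1 for PEP-like, 0 for TH-like and for both classes against NP-like, 57 to 62 for non-neuronal cells, 0 to 8 for cooling and 3 to 12 for the pathway genes. With neurons only, without preparations 1 to 5 in turn, the counts were 50, 54, 53, 54 and 56 for NF-like, 25, 35, 26, 34 and 41 for NP-like, 6, 5, 5, 10 and 12 for TH-like against NP-like and 7, 14, 7, 11 and 16 for PEP-like against NP-like; the ranges were 1 to 4 for PEP-like, 0 to 2 for TH-like and 18 to 21 for the pathway genes. Summed RPM and paralogue shares moved by less than 1 SD under every alternative run on them. Single-gene values were followed under the alternatives only for the genes picked out in each comparison. Of these values, 709 kept their direction and side of the threshold, and 67 passed it only in the 5-group model. The others passed it only under the alternative, except 1 that turned: Atp5g1 in PEP-like against NP-like cells was -0.58 with clusters at resolution 2, against 0.85 at resolution 1. Genes outside this tally turned too, in non-neuronal cells with centring, as given above.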
